A study of Mus musculus with 6 samples.

Results

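The 54 protein-coding genes of the heterotrimeric G proteins and the numbered regulator of G protein signaling (RGS) proteins were read out in cartilage cells of Girk3-null and wild type (WT) mice. They were taken by gene symbol from the 43346 genes of the deposited table, and comprised 16 alpha subunits, 5 beta subunits, 12 gamma subunits and 21 RGS proteins. The RNA came from primary chondrocytes of the epiphyses, the growing ends of bones, freed from their matrix with collagenase II. There were 3 libraries from Girk3-null (Girk3-/-) mice and 3 from WT mice, which the series text calls biological replicates, and all 6 animals were 5 days old, of the C57BL/6 strain and male per the labels. The study compared chondrocytes with and without Girk3, a subunit of the potassium channels that G protein beta-gamma dimers open, encoded by Kcnj9. How the null allele was made, and whether Girk3 was missing in other tissues as well, is not given in the sources used here.

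A heterotrimeric G protein couples a receptor at the cell surface to enzymes and channels inside the cell. The activated receptor makes the alpha subunit exchange GDP for GTP, upon which alpha and the beta-gamma dimer part and each acts on its own effectors, until alpha hydrolyses its GTP. Gs alpha stimulates adenylyl cyclase, Gi/o alpha inhibits it, and Gq/11 alpha activates phospholipase C beta. RGS proteins speed up GTP hydrolysis and so shorten the signal. In growth cartilage the receptor for parathyroid hormone-related protein signals through Gs to hold back the hypertrophy of chondrocytes.

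Total counts were 60392837, 44864868 and 34279516 in Girk3-null replicates 1, 2 and 3, and 44291556, 50361885 and 42252651 in WT replicates 1, 2 and 3. A count of 0 leaves room for 3 counts, or between 0.0506 and 0.0935 CPM across libraries (CPM being counts relative to the library total after TMM scaling, throughout), and this limit covers counting error only. Kcnj9 had 0 counts in all 6 libraries, so the genotype could not be checked from it, and of its partner subunits Kcnj3 had 3 counts in WT replicate 1 only, Kcnj6 0 to 3 and Kcnj5 3 to 25. The sex label matched the transcripts of 1 library only. Girk3-null replicate 1 had 16088 counts over 4 Y-linked genes and 19 of Xist, whereas the other 5 libraries had 0 to 7 and 67346 to 144825, so results are also given without Girk3-null replicate 1. The numbers in the sample titles fell below 200 for Girk3-null replicate 1 and WT replicates 1 and 2 and above 200 for the other 3 libraries, and what these numbers stand for is not given in the sources used here. Col2a1, the main collagen of cartilage, measured 51310, 72920 and 88060 CPM in Girk3-null and 39020, 28880 and 54960 CPM in WT libraries, and Acan and Sox9, the other defining chondrocyte markers, were also high in every library.

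In the libraries of both genotypes a compact set of these genes led its families. These were Gnas, Gnai2 and Gnai3 among the alpha subunits, Gnb1 and Gnb2 among the beta subunits, Gng12 among the gamma subunits and Rgs16 among the RGS proteins. The alpha subunit gene Gna13 was close to Gng12 in mean level. Between Girk3-null and WT libraries, none of the 47 genes that could be tested passed a threshold of 0.05 on the adjusted p of edgeR's quasi-likelihood test. These 47 of the 54 genes had passed a filter on low counts, 23 with a higher and 24 with a lower estimate in Girk3-null libraries. Their median log2 fold change (Girk3-null over WT, throughout) was -0.01, and that of all 17554 tested genes was 0.01. The largest estimates were for Rgs4 and Rgs5, both lower in Girk3-null.

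Across the whole table the same test called 1 of 17554 genes (0.00570%), higher in Girk3-null, and no gene of this set. At an unadjusted p under 0.05 there were 5 of the 47 genes (10.6%), against 14.5% of all tested genes. These were Gna14, higher in Girk3-null (7.49% of all tested genes lay on that side), and Rgs4, Rgs5, Gng4 and Gnai1, lower in Girk3-null (7.02% of all tested genes). The 3 libraries of one genotype did not overlap the 3 of the other in CPM for 8 of the 47 genes (17.0%), against 20.0% of all tested genes. Gna14 and Gng13 lay wholly higher in Girk3-null (9.86% of all tested genes did), and Gnai3, Gna13, Gnai1, Gnb4, Gng4 and Rgs4 wholly lower (10.2% of all tested genes did). DESeq2, run as an alternative, gave an adjusted p to 43 of the 47 genes and called 1 (2.33%), Rgs4, lower in Girk3-null (2.14% of the 15852 genes to which it gave one, 0.997% on the lower side). Without Girk3-null replicate 1, edgeR called 0 of the 47 genes, 4 (8.51%) had an unadjusted p under 0.05, against 9.70% of the 17980 genes then tested, and their median log2 fold change was -0.05. Among the 29 genes that averaged at least 2 in log2 CPM, the median absolute log2 fold change was 0.17 and 86.2% stayed within 0.5, against 0.18 and 90.1% for the 11577 genes of that abundance in the table. In bulk RNA, fewer cells of a type and less RNA per cell cannot be told apart.

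**Figure D1:**
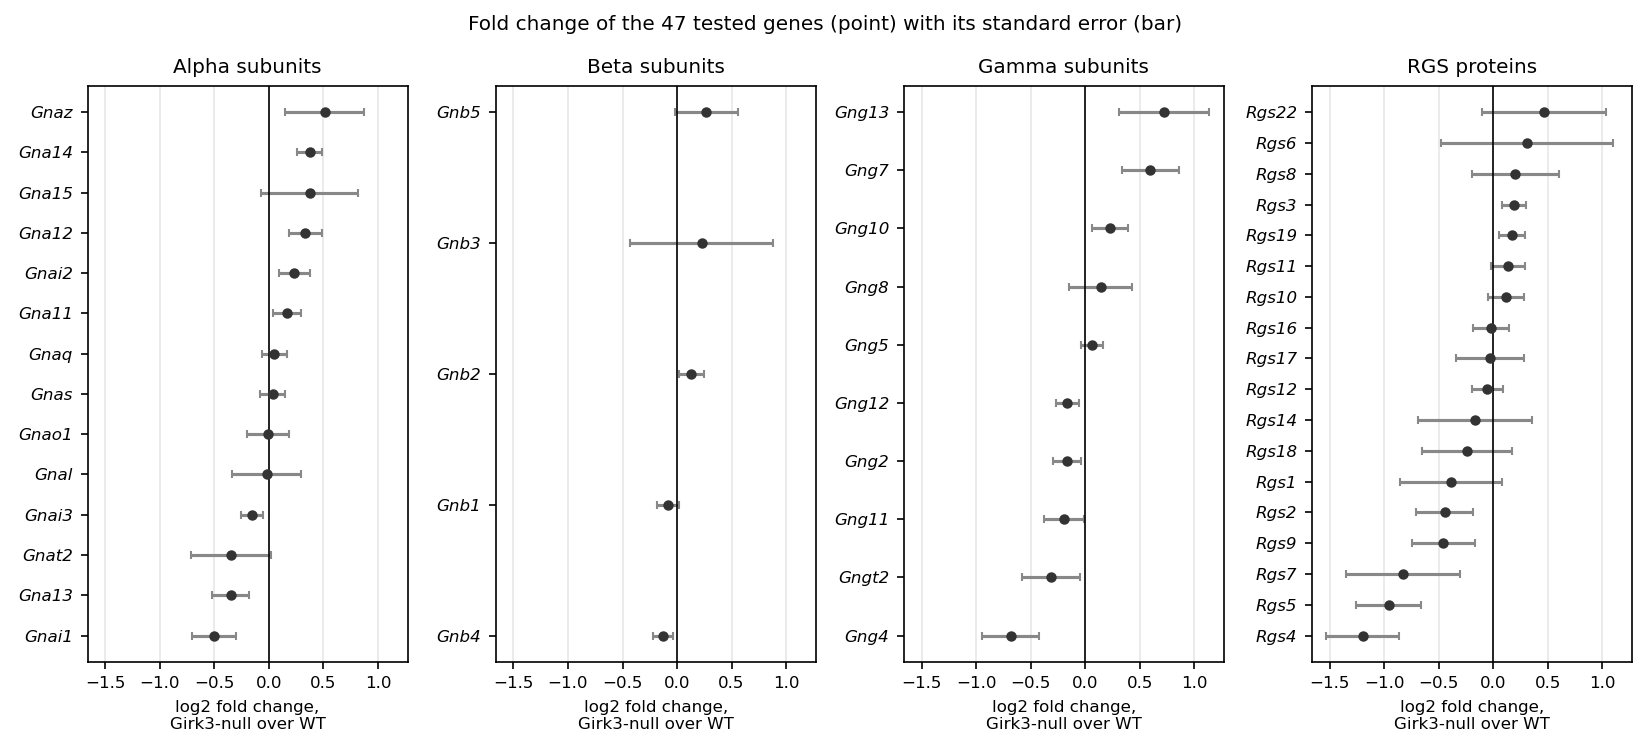
Log2 fold change of the 47 tested genes, Girk3-null over WT, one row a gene sorted within its family (points: edgeR estimates; bars: standard errors; line at 0: no difference). Most estimates lie within 0.5 of 0, Rgs4 (-1.20) and Rgs5 (-0.96) lie farthest below it, and the genes with the widest bars are those with few counts.

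The promoters of 4 RGS genes are shown, among them those of Rgs4 and Rgs5, whose estimates were the largest. The others are Rgs2 and Rgs16, which had the highest mean RPKM among the remaining genes of the same R4 subfamily of small RGS proteins. Of the 21 RGS genes, 11 lie on mouse chromosome 1, and so do 9 of the 10 R4 genes, while Kcnj9 lies on the same chromosome at 172320501 to 172329318 (mm10). Rgs5 and Rgs4 are neighbours there, with 45663 bases between the end of Rgs5 and the start of Rgs4, and lie 2.62 and 2.57 Mb from Kcnj9. The sequences are from RefSeq (GRCm38.p6), 250 bases before to 50 bases after the listed start, written 5′ to 3′ on the strand of the gene. Rgs4 is at chr1:169747593-169747892 on the minus strand, Rgs5 at chr1:169655251-169655550 on the plus strand, Rgs2 at chr1:144004100-144004399 on the minus strand, and Rgs16 at chr1:153740103-153740402 on the plus strand. Capitals mark TGACG on either strand, the core of the cAMP response element, and TATAAA, the TATA box.
Rgs4: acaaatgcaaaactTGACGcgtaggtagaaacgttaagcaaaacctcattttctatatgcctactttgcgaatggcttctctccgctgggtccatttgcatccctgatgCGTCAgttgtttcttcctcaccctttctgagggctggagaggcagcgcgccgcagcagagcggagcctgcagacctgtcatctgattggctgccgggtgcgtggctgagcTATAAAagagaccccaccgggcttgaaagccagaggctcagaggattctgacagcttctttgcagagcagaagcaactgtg
Rgs5: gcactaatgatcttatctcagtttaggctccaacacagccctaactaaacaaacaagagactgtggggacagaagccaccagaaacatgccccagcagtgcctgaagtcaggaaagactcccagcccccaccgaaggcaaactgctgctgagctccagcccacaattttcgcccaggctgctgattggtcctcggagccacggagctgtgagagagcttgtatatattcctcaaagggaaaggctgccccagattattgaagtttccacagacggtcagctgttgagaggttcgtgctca
Rgs2: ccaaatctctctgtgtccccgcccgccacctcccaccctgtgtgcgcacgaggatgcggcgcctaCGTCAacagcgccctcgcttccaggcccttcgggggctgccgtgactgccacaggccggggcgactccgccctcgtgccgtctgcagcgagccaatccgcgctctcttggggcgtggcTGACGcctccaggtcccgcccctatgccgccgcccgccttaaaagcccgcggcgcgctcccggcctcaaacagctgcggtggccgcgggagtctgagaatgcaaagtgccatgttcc
Rgs16: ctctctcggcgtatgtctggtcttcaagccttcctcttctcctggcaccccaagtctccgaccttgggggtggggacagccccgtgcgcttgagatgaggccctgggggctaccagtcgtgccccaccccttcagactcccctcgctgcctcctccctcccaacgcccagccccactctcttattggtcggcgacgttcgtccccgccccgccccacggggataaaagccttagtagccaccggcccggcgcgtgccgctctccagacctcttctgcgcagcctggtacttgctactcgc

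The Rgs4 window held TGACG at -236 on the gene's strand and at -141 on the other strand (positions count from the listed start), and TATAAA at -31. The Rgs2 window held TGACG at -67 on the gene's strand and at -185 on the other strand, and neither motif was found in the Rgs5 and Rgs16 windows. The full palindrome TGACGTCA was in none of the 4. Of the 32851 promoter windows in the table, 20.8% held TGACG on either strand, 13.6% TATAAA on either strand and 1.79% TGACGTCA, which contains TGACG. The table gave 53 windows for 40 of the 54 genes, of which 24.5% held TGACG and 17.0% TATAAA. A match describes the letters only.

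Levels between genes are given in RPKM, counts scaled by gene length and library total, with no TMM scaling. Gnas, which encodes Gs alpha, was the most abundant alpha subunit transcript by mean RPKM. Gnas measured 85.1, 89.8 and 80.3 RPKM in Girk3-null and 94.3, 95.3 and 79.9 RPKM in WT libraries, which put it at rank 480 of 43346 genes by mean RPKM. The ranges of the genotypes overlapped, and its log2 fold change was 0.03 with a standard error (SE) of 0.11 (adjusted p = 0.91 in edgeR's quasi-likelihood test). That estimate turned negative when libraries were scaled by their totals alone (-0.08). The Gnas locus also makes imprinted transcripts and its listed exons add up to 11186 bases, so its RPKM depends on that length. Gnal, the Gs family member of olfactory neurons and striatum, averaged 0.488 RPKM in Girk3-null and 0.529 RPKM in WT libraries. It is overlapped on the other strand by Mppe1, which had 317% of its counts, and its level is therefore uncertain, since no strand setting is given.

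Gi/o alpha subunits, whose release of beta-gamma dimers is the usual route to GIRK channels, were present mainly as Gnai2 and Gnai3. Gnai2 measured 90.1, 75.9 and 74.9 RPKM in Girk3-null and 77.3, 63.7 and 78.6 RPKM in WT libraries, and Gnai3 60.3, 65.2 and 67.5 RPKM in Girk3-null and 81.2, 79.5 and 71.1 RPKM in WT libraries. Gnai3 was lower in every Girk3-null library than in any WT library, while the Gnai2 ranges overlapped. On the TMM-scaled CPM scale used for the tests the Gnai3 gap was narrow, with 200, 219 and 235 CPM in Girk3-null and 248, 240 and 239 CPM in WT libraries. The log2 fold change was -0.15 (SE 0.10, adjusted p = 0.485) for Gnai3 and 0.23 (SE 0.14, adjusted p = 0.44) for Gnai2 in edgeR's quasi-likelihood test. Gnai3 was at -0.09 without Girk3-null replicate 1, and Gnai2 at 0.12 without WT replicate 2.

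The order of these abundant alpha subunits by RPKM was not fixed across libraries. Gnas exceeded Gnai2 in 5 of 6 libraries and Gnai2 exceeded Gnai3 in 4 of 6, so neither pair of neighbours differed beyond its spread, while Gnas exceeded Gnai3 in all 6. Within a library the ratio of Gnai3 to Gnai2 RPKM was 0.669, 0.859 and 0.902 in Girk3-null and 1.05, 1.25 and 0.905 in WT libraries. The groups did not overlap, but Girk3-null replicate 3 and WT replicate 3 were next to equal. The exact permutation test, two-sided, gave p = 0.1, the smallest that 3 against 3 libraries can give, and the pair was chosen after its values were seen.

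Gnai1 was far less abundant, at 1.88, 1.86 and 1.38 RPKM in Girk3-null and 2.68, 3.22 and 1.96 RPKM in WT libraries. It was lower in all 3 Girk3-null libraries than in any WT library. Its log2 fold change was -0.50 (SE 0.20, adjusted p = 0.322 in edgeR's quasi-likelihood test, 0.122 to 0.814 over 15 alternatives) and -0.56 without Girk3-null replicate 1. The difference of mean log2 CPM was -0.24 among the libraries with title numbers above 200 (2 Girk3-null and 1 WT) and -0.48 among those below 200 (1 Girk3-null and 2 WT).

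The other Gi/o genes were close to the detection limit or below 1 RPKM. Gnao1, the main G protein alpha subunit of brain, averaged 0.444 RPKM in Girk3-null and 0.483 RPKM in WT libraries. Gnaz, known from platelets and neurons, averaged 0.403 RPKM in Girk3-null and 0.301 RPKM in WT libraries. Gnat2, the transducin of cones, averaged 0.153 RPKM in Girk3-null and 0.210 RPKM in WT libraries. The rod transducin Gnat1 had 0 to 11 counts and the taste transducin Gnat3, or gustducin, 0 to 7 counts per library, and both were left out by the filter. Gnat3 had 2, 0 and 0 counts in Girk3-null and 2, 7 and 6 counts in WT libraries, too few for a comparison.

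All 4 Gq/11 genes had a positive estimate, with a median log2 fold change of 0.27, but that of Gnaq (0.05, SE 0.12) kept its sign in only 11 of 15 alternatives. Among libraries with title numbers above 200 the differences of Gnaq and Gna11 were negative, at -0.15 and -0.04. Gna11 and Gnaq, the broadly expressed pair that activates phospholipase C beta, averaged 18.0 and 13.3 RPKM in Girk3-null and 17.2 and 13.8 RPKM in WT libraries. Gna14, a Gq family member of more restricted expression, measured 7.16, 7.16 and 7.53 RPKM in Girk3-null and 6.01, 6.01 and 6.13 RPKM in WT libraries. Every Girk3-null library lay above every WT library.

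In CPM, Gna14 averaged 25.6 ± 1.42 in Girk3-null and 19.8 ± 1.40 in WT libraries (SD, n = 3 each). The fitted log2 fold change was 0.37 (SE 0.12, adjusted p = 0.291 in edgeR's quasi-likelihood test, 0.106 to 0.814 over 15 alternatives). It was 0.40 without Girk3-null replicate 1, and the difference was 0.28 among libraries with title numbers above 200 and 0.37 among those below. By unadjusted p it ranked 630 of 17554 genes. The ratio of Gna14 to Gnaq RPKM was 0.522, 0.580 and 0.549 in Girk3-null and 0.458, 0.444 and 0.418 in WT libraries, with no overlap (exact permutation p = 0.1, two-sided, the smallest possible; pair chosen after its values were seen). Gna15, the promiscuous Gq family member of blood cells, had 8 to 21 counts in Girk3-null and 8 to 21 counts in WT libraries.

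The G12/13 genes had estimates of opposite sign that did not pass the test. Gna13 measured 19.6, 28.1 and 29.5 RPKM in Girk3-null and 35.7, 39.4 and 31.7 RPKM in WT libraries. Every Girk3-null library lay below every WT library, and Girk3-null replicate 1 lay farthest below. Its log2 fold change was -0.35 (SE 0.17, adjusted p = 0.36 in edgeR's quasi-likelihood test) and -0.18 without Girk3-null replicate 1. Gna12 measured 27.3, 22.6 and 25.7 RPKM in Girk3-null and 21.5, 18.3 and 24.3 RPKM in WT libraries, with overlapping ranges, a log2 fold change of 0.34 (SE 0.15, adjusted p = 0.351 in edgeR's quasi-likelihood test) and 0.21 without WT replicate 2. Among libraries with title numbers above 200 the differences were -0.11 for Gna13 and 0.01 for Gna12, and below 200 they were -0.81 and 0.58.

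**Figure D2:**
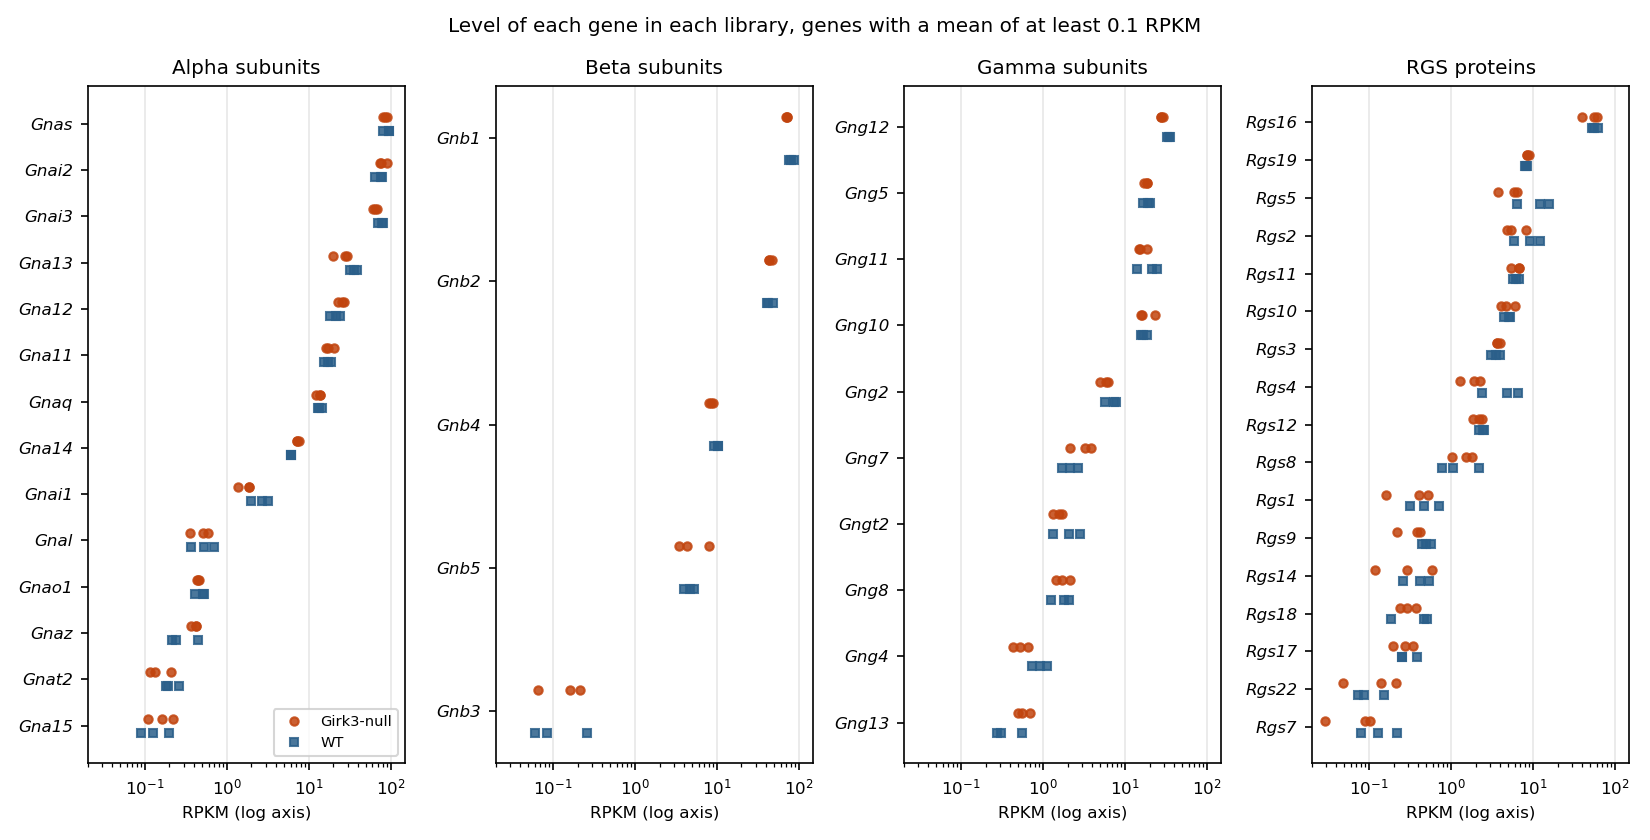
Level of each gene with a mean of at least 0.1 RPKM in each of the 6 libraries (x: RPKM on a log axis; circles: Girk3-null; squares: WT), ordered by mean within each family. By mean, Gnas, Gnai2, Gnai3, Gnb1, Gnb2, Gng12 and Rgs16 lie highest. Gna13, at a mean of 30.7 RPKM, is next to equal to Gng12 at 31.1 RPKM and lies above it in some libraries. For most genes the ranges of circles and squares overlap.

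As shares of the summed alpha subunit RPKM in a library, the classes differed little between genotypes. The size of each share depends on the listed gene lengths, which were 11186 bases for Gnas, 3779 for Gnai2 and 3262 for Gnai3. By total counts Gnas led, with 271510 against 80743 for Gnai2 and 63559 for Gnai3, so the rank of Gi/o over Gs holds for RPKM only. Gi/o made up 45.7 ± 1.02% in Girk3-null and 45.5 ± 1.44% in WT libraries, and Gs 26.5 ± 1.41% in Girk3-null and 26.7 ± 1.97% in WT libraries (SD, n = 3 each). G12/13 made up 15.8 ± 1.47% in Girk3-null and 16.8 ± 0.517% in WT libraries, and Gq/11 11.99 ± 0.729% in Girk3-null and 10.98 ± 0.654% in WT libraries. The exact permutation p (two-sided) was 0.2 to 1.0 over the 4 classes and at least 0.5 after adjustment over 20 shares tested in the 4 families. The summed alpha subunit RPKM was 327.3, 321 and 319 in Girk3-null and 352, 336 and 327.6 in WT libraries, so the groups were next to touching. These sums carry no TMM scaling. On log2(RPKM + 0.1) the median log2 fold change of all tested genes was -0.09, against 0.01 in the TMM-scaled fit.

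Among the beta subunits, which form the dimer that binds GIRK channels, Gnb1 was the most abundant in all 6 libraries. Gnb1 measured 69.8, 72.0 and 72.3 RPKM in Girk3-null and 80.8, 87.4 and 76.1 RPKM in WT libraries. The RPKM of the genotypes did not overlap, but after TMM scaling they did, and the log2 fold change was -0.08 (SE 0.10, adjusted p = 0.711 in edgeR's quasi-likelihood test). Gnb2 measured 43.7, 43.4 and 47.3 RPKM in Girk3-null and 49.1, 41 and 42.1 RPKM in WT libraries, with a log2 fold change of 0.13 (SE 0.11, adjusted p = 0.581 in edgeR's quasi-likelihood test).

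Gnb4 measured 8.09, 8.99 and 8.49 RPKM in Girk3-null and 10.5, 10.5 and 9.23 RPKM in WT libraries, lower in every Girk3-null library. The log2 fold change of Gnb4 was -0.13 (SE 0.09, adjusted p = 0.524 in edgeR's quasi-likelihood test). Gnb4 made up 6.56% of beta subunit RPKM in Girk3-null and 7.15% in WT libraries, again without overlap (exact permutation p = 0.1, two-sided, the smallest possible, adjusted p = 0.5). Gnb5, the atypical beta subunit that pairs with R7 RGS proteins, measured 7.94, 4.33 and 3.46 RPKM in Girk3-null and 5.32, 4.78 and 4.02 RPKM in WT libraries, and Girk3-null replicate 1 stood above the other 5. Gnb3, best known from retina, averaged 0.147 RPKM in Girk3-null and 0.136 RPKM in WT libraries. The order Gnb1, Gnb2, Gnb4, Gnb5, Gnb3 held in all 6 libraries, and no neighbours in it had overlapping ranges.

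Of the 12 gamma subunit genes, 10 were tested, 5 with a positive and 5 with a negative estimate. Gng12, a widely expressed gamma subunit, was the most abundant, at 27.6, 27.7 and 29.4 RPKM in Girk3-null and 32.4, 35.3 and 34.3 RPKM in WT libraries. Its RPKM did not overlap between the genotypes, whereas its TMM-scaled CPM did, and the log2 fold change was -0.16 (SE 0.10, adjusted p = 0.465 in edgeR's quasi-likelihood test). Gng5 measured 17.0, 18.5 and 18.7 RPKM in Girk3-null and 19.3, 20.4 and 16.4 RPKM in WT libraries, a log2 fold change of 0.06 (SE 0.10, adjusted p = 0.784 in edgeR's quasi-likelihood test) that was -0.05 with libraries scaled by their totals alone. Gng11 measured 15.3, 18.4 and 14.7 RPKM in Girk3-null and 21.3, 24.8 and 14.2 RPKM in WT libraries, with WT replicate 3 the lowest of all 6, and a log2 fold change of -0.20 (SE 0.18, adjusted p = 0.617 in edgeR's quasi-likelihood test), which was -0.05 without WT replicate 2 and -0.35 without WT replicate 3. Gng10 averaged 18.5 RPKM in Girk3-null and 17.0 RPKM in WT libraries, but shares its strand with Gm20503, which had 96.9% as many counts, so that its reads could be split. Gng5, Gng11 and Gng10 did not differ beyond their spread.

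A trio of gamma subunit genes of lower level had estimates above 0.5 in size. Gng7, which pairs with Gs family alpha subunits in striatum, measured 14.98, 12.6 and 8.66 CPM in Girk3-null and 7.51, 5.92 and 10.6 CPM in WT libraries. The ranges overlapped, since Girk3-null replicate 3 lay below WT replicate 3. Its log2 fold change was 0.60 (SE 0.26, adjusted p = 0.344 in edgeR's quasi-likelihood test), with differences of -0.02 among libraries with title numbers above 200 and 1.11 among those below. Gng4 measured 1.70, 2.15 and 1.496 CPM in Girk3-null and 2.20, 3.38 and 3.02 CPM in WT libraries, lower in every Girk3-null library. For Gng4 the log2 fold change was -0.68 (SE 0.26, adjusted p = 0.308 in edgeR's quasi-likelihood test), and the differences were -0.62 above and -0.56 below title number 200. Gng13, known from taste and olfactory cells, measured 0.439, 0.550 and 0.405 CPM in Girk3-null and 0.402, 0.221 and 0.220 CPM in WT libraries, a log2 fold change of 0.72 (SE 0.42, adjusted p = 0.423 in edgeR's quasi-likelihood test). Chtf18 overlaps it on the other strand with 684% of its 103 counts, so that its level is uncertain.

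The remaining gamma genes were low. Gng2 averaged 5.72 RPKM in Girk3-null and 6.94 RPKM in WT libraries. Gng8 averaged 1.75 RPKM in Girk3-null and 1.72 RPKM in WT libraries. Gngt2, the gamma subunit of cones, averaged 1.54 RPKM in Girk3-null and 2.08 RPKM in WT libraries and is overlapped on the other strand by Abi3 with 20.5% as many counts. Gng3, a neuronal gamma subunit, had 0 to 5 counts per library, and Gngt1, that of rods, had 0 counts in all 6. Gng12 made up 30.0% of gamma subunit RPKM in Girk3-null and 32.9% in WT libraries, Gng11 17.2% in Girk3-null and 19.1% in WT libraries, and no gamma subunit share had an exact permutation p below 0.2 (two-sided).

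**Figure D3:**
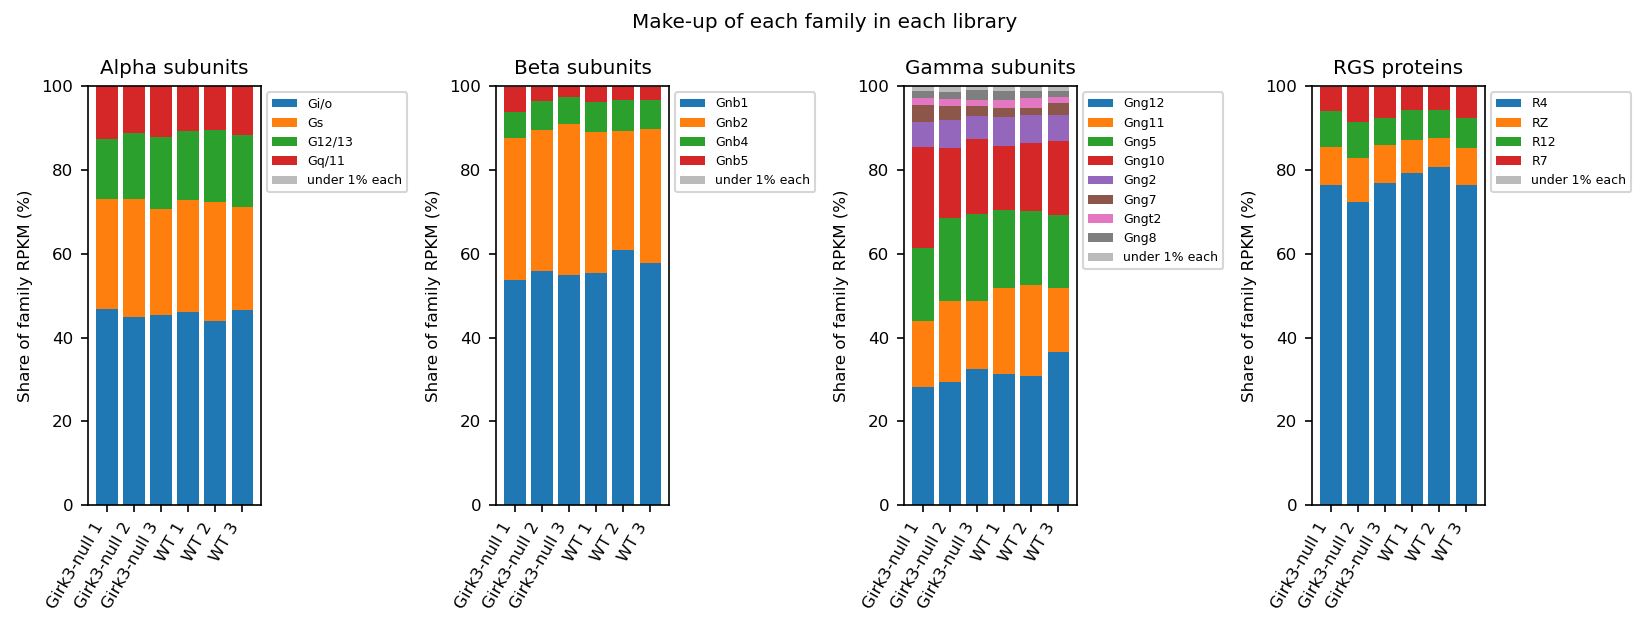
Make-up of each family in each library, as the share of the family's summed RPKM (y, percent; each bar is 1 library, Girk3-null replicates 1 to 3 left of WT replicates 1 to 3). Gi/o alpha subunits, Gnb1 and R4 RGS proteins hold the largest share of their families in all 6 libraries, and Gng12 the largest of the gamma subunits. RPKM depends on listed gene length, and by total counts Gnas exceeded Gnai2 and Gnai3.

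Rgs16, an R4 protein that acts on Gi and Gq alpha subunits, was the leading RGS transcript of these libraries by a wide margin. It measured 60.3, 39.3 and 55.9 RPKM in Girk3-null and 52.3, 62.5 and 54.8 RPKM in WT libraries, several times the next RGS gene in each. The genotypes overlapped, with Girk3-null replicate 2 the lowest of the 6. Its log2 fold change was -0.02 (SE 0.17, adjusted p = 0.972 in edgeR's quasi-likelihood test). Rgs19, or GAIP, a regulator of Gi alpha, was second by mean and the steadiest, at 8.46, 8.97 and 8.43 RPKM in Girk3-null and 8.26, 8.09 and 8.38 RPKM in WT libraries, with a log2 fold change of 0.17 (SE 0.12, adjusted p = 0.499 in edgeR's quasi-likelihood test).

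Rgs4 and Rgs5, which act on Gi and Gq alpha subunits and of which Rgs5 is a widely used marker of pericytes, the contractile cells of small vessels, had the largest estimates of the set. Rgs4 measured 4.12, 7.17 and 6.33 CPM in Girk3-null and 13.9, 18.7 and 7.59 CPM in WT libraries. Every Girk3-null library lay below every WT library, but WT replicate 3 lay just above Girk3-null replicate 2 and far below the other WT libraries. Rgs4 averaged 5.87 ± 1.58 CPM in Girk3-null and 13.4 ± 5.57 CPM in WT libraries (SD, n = 3 each), with a log2 fold change of -1.20 (SE 0.33). Its adjusted p was 0.291 in edgeR's quasi-likelihood test, 0.024 in DESeq2 and 0.024 to 0.814 over 15 alternatives, and its unadjusted p of 0.00648 ranked 365 of 17554 genes.

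Rgs5 measured 17.6, 27.3 and 31.3 CPM in Girk3-null and 51.6, 66.1 and 29.8 CPM in WT libraries. WT replicate 3 lay within the Girk3-null range, so the genotypes overlapped. Rgs5 averaged 25.4 ± 7.03 CPM in Girk3-null and 49.1 ± 18.3 CPM in WT libraries (SD, n = 3 each), with a log2 fold change of -0.96 (SE 0.30, adjusted p = 0.291 in edgeR's quasi-likelihood test, 0.0568 in DESeq2 and 0.0568 to 0.814 over 15 alternatives).

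Among the libraries with title numbers below 200, where the only Girk3-null library is replicate 1, the one with Y-linked counts, the difference was -1.85 for Rgs4 and -1.70 for Rgs5. Among libraries with title numbers above 200, where WT replicate 3 is the only WT library, it was -0.16 and -0.03. Each value rests on 1 library of a genotype, and the difference between them was not tested. Without Girk3-null replicate 1 the log2 fold change was -0.99 for Rgs4 and -0.75 for Rgs5 (adjusted p = 0.512 for both in edgeR's quasi-likelihood test). Without WT replicate 2 it was -0.88 and -0.69, and without WT replicate 3 it was -1.48 and -1.22. The ratio of Rgs4 to Rgs5 RPKM stayed within 0.297 to 0.386 in Girk3-null and 0.373 to 0.415 in WT libraries, with overlap, a pair chosen after its values were seen.

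**Figure D4:**
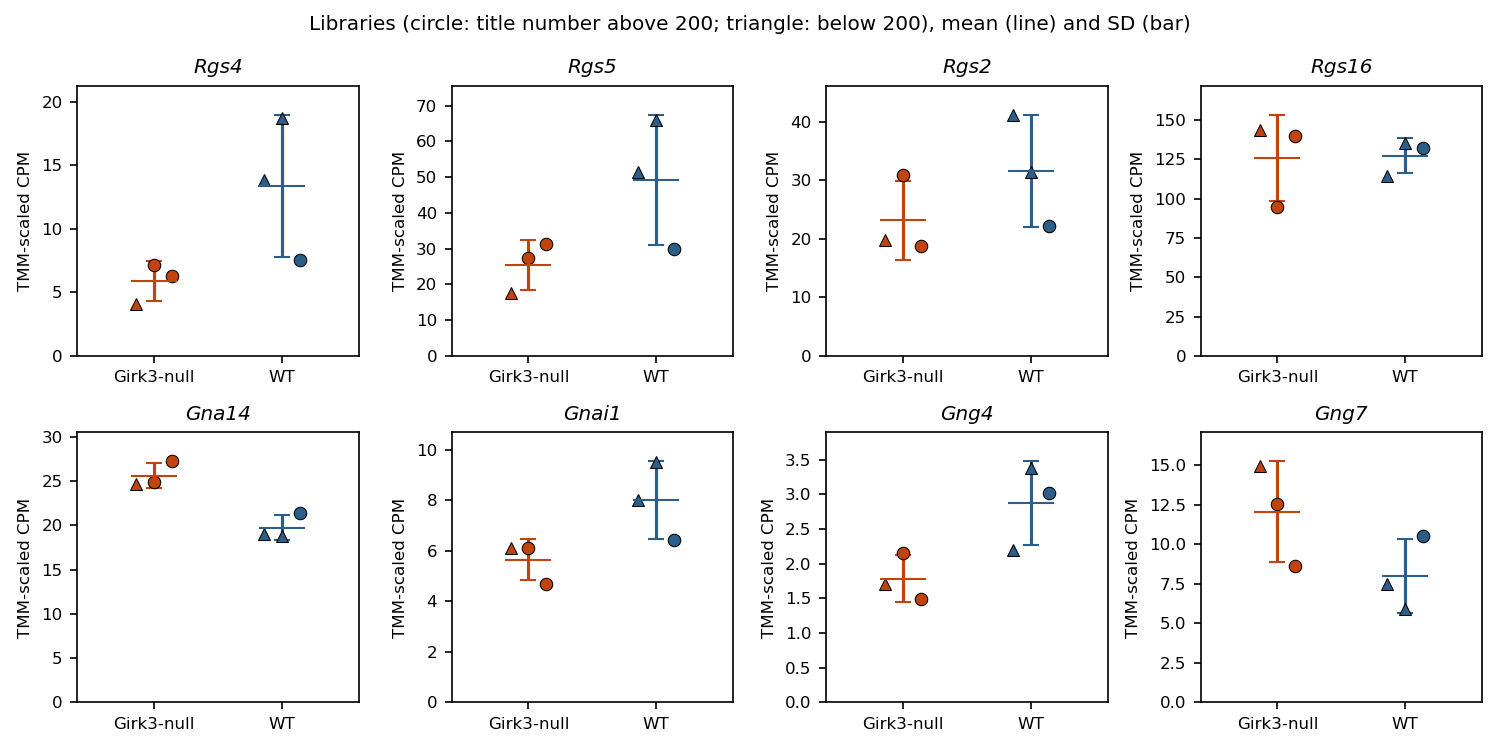
TMM-scaled CPM of 8 genes in each library (y, from 0; circles: title numbers above 200; triangles: below 200; horizontal line and bar: mean and SD of 3 libraries), Girk3-null left of WT. For Rgs4 and Rgs5 the circles of both genotypes lie close together and the WT triangles lie high. Each symbol class holds only 1 library of one of the genotypes.

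Rgs2, a regulator that prefers Gq alpha, measured 19.9, 30.9 and 18.7 CPM in Girk3-null and 41.1, 31.3 and 22.1 CPM in WT libraries, with overlap and a log2 fold change of -0.45 (SE 0.26, adjusted p = 0.425 in edgeR's quasi-likelihood test). The estimate was -0.21 without WT replicate 1 and -0.71 without Girk3-null replicate 2. Its difference was 0.12 among libraries with title numbers above 200 and -0.84 among those below. Rgs3, an R4 protein that acts on Gi and Gq, measured 39.8, 40.1 and 45.2 CPM in Girk3-null and 40.1, 35.5 and 33.97 CPM in WT libraries, a log2 fold change of 0.19 (SE 0.11, adjusted p = 0.431 in edgeR's quasi-likelihood test). Of the 8 tested R4 genes, 2 had a positive and 6 a negative estimate, with a median of -0.31. R4 genes held 75.2 ± 2.59% of RGS RPKM in Girk3-null and 78.8 ± 2.30% in WT libraries (SD, n = 3 each), with an exact permutation p of 0.3, two-sided. The RZ genes Rgs17, Rgs19 and Rgs20 held 9.50% in Girk3-null and 7.80% in WT libraries without overlap, though the lowest Girk3-null share of 8.87% was next to equal to the highest WT share (exact permutation p = 0.1, two-sided, the smallest possible, adjusted p = 0.5).

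The R7 proteins bind Gnb5 in place of a gamma subunit. In neurons, R7 proteins speed the closing of GIRK channels. In these libraries the R7 gene Rgs11 was the most abundant of them, at 6.35 RPKM in Girk3-null and 6.22 RPKM in WT libraries on average, whereas Rgs9 averaged 0.340 RPKM in Girk3-null and 0.501 RPKM in WT libraries. Rgs7, 2.73 Mb from Kcnj9, measured 0.540, 0.642 and 0.187 CPM in Girk3-null and 0.444, 1.23 and 0.805 CPM in WT libraries, a log2 fold change of -0.83 (SE 0.52, adjusted p = 0.462 in edgeR's quasi-likelihood test) with overlapping ranges, and -0.42 without WT replicate 2. Rgs6 had 2 to 26 counts per library. The reads of Rgs11 may include some of Arhgdig on the other strand, which had 7.24% as many counts.

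Of the R12 genes, Rgs10 averaged 4.94 RPKM in Girk3-null and 4.91 RPKM in WT libraries and Rgs12 2.15 RPKM in Girk3-null and 2.40 RPKM in WT libraries, while Rgs14 averaged 0.330 RPKM in Girk3-null and 0.405 RPKM in WT libraries. Rgs8, an R4 gene best known from brain, averaged 1.46 RPKM in Girk3-null and 1.34 RPKM in WT libraries. Rgs1, known from lymphocytes, averaged 0.362 RPKM in Girk3-null and 0.500 RPKM in WT libraries, and Rgs18, known from platelets and their precursors, 0.301 RPKM in Girk3-null and 0.389 RPKM in WT libraries. Rgs17 and Rgs22 stayed below 0.4 RPKM in all 6 libraries. Rgs13 had 1 count, in WT replicate 2, Rgs20 had 0 to 5 counts per library, and Rgs21 had none. By mean RPKM, Rgs16 stood apart from all other RGS genes, and each pair of next neighbours in the order Rgs19, Rgs5, Rgs2, Rgs11 and Rgs10 overlapped.

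Marker lists of other cell types are given beside Rgs4 and Rgs5, and no gene of them passed the adjusted threshold in edgeR. Of 12 pericyte and smooth muscle markers (no RGS gene among them), 11 were tested, 4 with a positive and 7 with a negative estimate and a median log2 fold change of -0.67. Their summed CPM was 890, 1348 and 1555 in Girk3-null and 1100, 847 and 1560 in WT libraries, of which Cspg4, which chondrocytes express as well, took 621, 1066 and 1291 in Girk3-null and 770, 557 and 1310 in WT libraries. Kcnj8, a channel gene of pericytes, measured 0.725, 1.17 and 0.872 CPM in Girk3-null and 3.15, 3.14 and 1.27 CPM in WT libraries. Abcc9, its partner subunit, measured 3.90, 5.04 and 4.74 CPM in Girk3-null and 12.4, 14.98 and 4.27 CPM in WT libraries. Kcnj8 and Abcc9 were high in WT replicates 1 and 2 and low in WT replicate 3, as Rgs4 and Rgs5 were. On the other side, Cox4i2 measured 90.3, 72.1 and 61.0 CPM in Girk3-null and 51.5, 43.5 and 58.7 CPM in WT libraries, and Notch3 and Pdgfrb had log2 fold changes of 0.09 and 0.06. None of the 3 defining markers of the list was at 0 in any library.

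Of 12 endothelial markers, 1 had a positive and 11 a negative estimate, with a median log2 fold change of -1.19, and their summed CPM was 37.5, 114 and 132 in Girk3-null and 199, 257 and 160 in WT libraries. The defining endothelial markers Pecam1, Cdh5 and Kdr were above 0 in every library. All 10 tested erythroid markers had a negative estimate, and their sum was 56.6, 161 and 90.6 CPM in Girk3-null and 214, 279 and 79.2 CPM in WT libraries. Skeletal muscle markers summed to 26.7, 11.5 and 19.7 CPM in Girk3-null and 68.1, 53.7 and 27.3 CPM in WT libraries, and Schwann cell and neuronal markers to 290, 273 and 275 CPM in Girk3-null and 558, 388 and 254 CPM in WT libraries. Of 10 perichondrial and tendon markers, 5 had a positive and 5 a negative estimate, with a median log2 fold change of -0.06. Among them, Postn measured 152, 173 and 147 CPM in Girk3-null and 504, 512 and 137 CPM in WT libraries. Tnmd measured 11.7, 19.0 and 11.6 CPM in Girk3-null and 29.7, 34.7 and 15.8 CPM in WT libraries, while Dcn had a log2 fold change of 0.68. Chondrocyte markers summed to 77030, 107700 and 120100 CPM in Girk3-null and 63940, 49500 and 82600 CPM in WT libraries, with 9 of 10 estimates positive. The part of these cell types in the values of Rgs4, Rgs5 and the other genes was not tested.

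**Figure D5:**
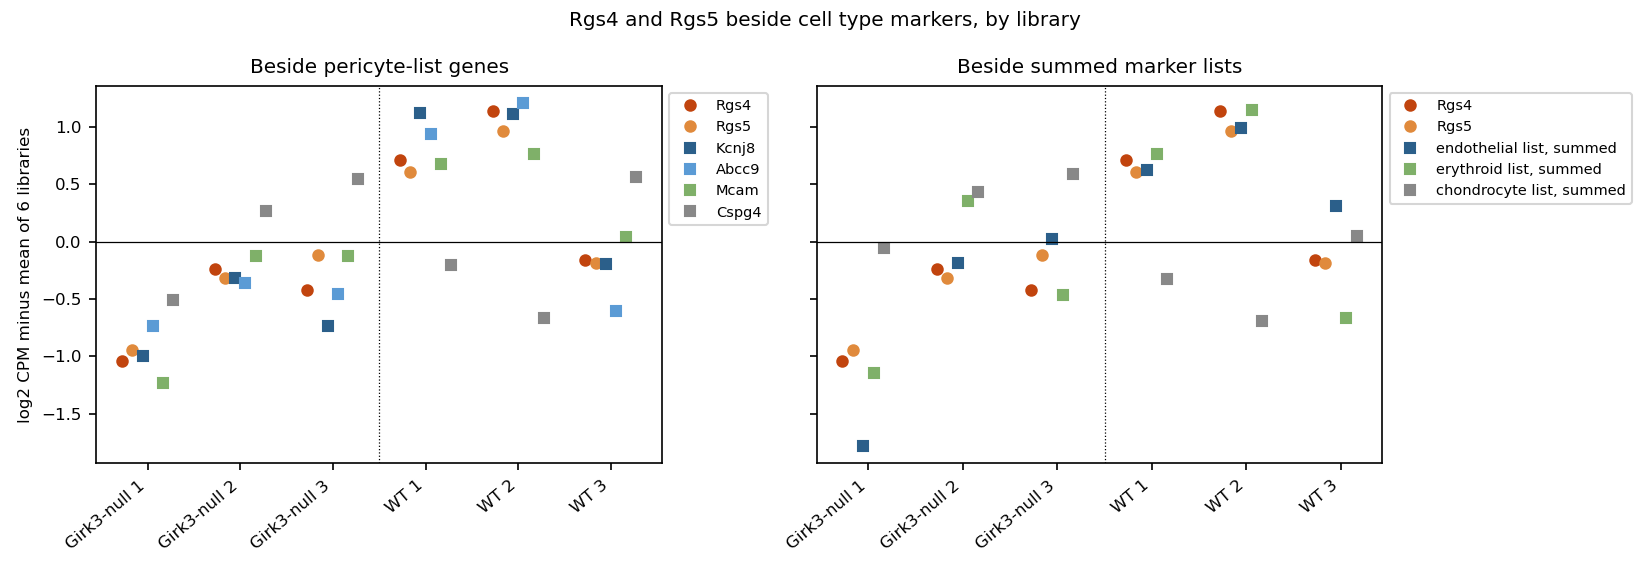
Rgs4 and Rgs5 (circles) beside 4 genes of the pericyte list (squares, left) and beside 3 summed marker lists (squares, right), one column a library, Girk3-null left of the dotted line and WT right of it (y: log2 CPM minus the mean of the 6 libraries). In WT replicates 1 and 2, Rgs4, Rgs5, Kcnj8, Abcc9, Mcam and the endothelial and erythroid sums lie above 0 and Cspg4 and the chondrocyte sum below it. The endothelial sum also lies above 0 in WT replicate 3, and the erythroid sum in Girk3-null replicate 2, where Rgs4 and Rgs5 lie below 0. Cox4i2, Notch3 and Pdgfrb of the pericyte list, with positive estimates, are not drawn.

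Macrophage markers summed to 316, 279 and 230 CPM in Girk3-null and 288, 225 and 255 CPM in WT libraries. Of the 10 tested, 3 had a positive and 7 a negative estimate, with a median log2 fold change of -0.14. Among them, Cd68 was at 0.66 and C1qb at -1.02. Megakaryocyte and platelet markers summed to 69.5, 62.5 and 58.7 CPM in Girk3-null and 51.7, 48.0 and 57.3 CPM in WT libraries. Neutrophil markers summed to 289.3, 591.8 and 93.8 CPM in Girk3-null and 634.5, 404.4 and 204.4 CPM in WT libraries. Lymphocyte markers summed to 26.3, 37.8 and 16.2 CPM in Girk3-null and 42.2, 27.4 and 20.3 CPM in WT libraries, where Cd3e was at 0 counts in 5 of 6 libraries. These lists stood beside Rgs1, Rgs18, Gna15 and Gngt2, and the part of such cells in the levels of these genes was not tested.

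The pathway around the G proteins was described from 9 lists with 117 genes, of which 109 were tested and 0 passed the threshold on edgeR's adjusted p. At an unadjusted p under 0.05 there were 13 higher and 13 lower in Girk3-null, 23.9% of those tested, against 14.5% of all tested genes. The lists were chosen with earlier results of these data known, so nothing is read from that share. Among 29 G protein-coupled receptors of cartilage and bone cells, 11 had a positive and 18 a negative estimate, with a median log2 fold change of -0.16. At an unadjusted p under 0.05, 3 of them were higher and 9 lower (7.49% and 7.02% of all tested genes), and DESeq2, which called 2.14% of all genes with an adjusted p, called 5 of the receptors and 1 adenylyl cyclase among all 9 lists. Pth1r, the receptor for parathyroid hormone and its related protein, measured 122.8, 99.7 and 78.2 CPM in Girk3-null and 40.8, 29.3 and 48.9 CPM in WT libraries. Every Girk3-null library lay above every WT library, with a log2 fold change of 1.34 (SE 0.22, adjusted p = 0.291 in edgeR's quasi-likelihood test). Beside it, 7 of 8 hypertrophic chondrocyte markers had a positive estimate, with a median log2 fold change of 0.68 (Col10a1 was at -0.29). Of the 8, 5 lay wholly higher in Girk3-null (9.86% of all tested genes did). Their summed CPM was 25190, 13450 and 14980 in Girk3-null and 12350, 11720 and 16460 in WT libraries, with overlap. Most of each sum was Spp1, at 20940, 9024 and 9576 CPM in Girk3-null and 8081, 8098 and 10770 CPM in WT libraries. Osteoblast markers had 7 of 9 positive estimates, with a median of 0.27 and sums of 4403, 6150 and 6671 CPM in Girk3-null and 5196, 4066 and 5120 CPM in WT libraries. Col1a1 and Col1a2 together made up most of each osteoblast sum. The defining genes Col10a1, Ihh, Mmp13, Bglap, Bglap2 and Dmp1 were above 0 in every library, and the part of such cells in the Pth1r values was not tested.

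Gpr126, an adhesion receptor with a known role in cartilage of the spine, measured 45.5, 49.0 and 37.3 CPM in Girk3-null and 26.9, 21.95 and 29.8 CPM in WT libraries. Its groups did not overlap either, with a log2 fold change of 0.75 (SE 0.15, adjusted p = 0.291 in edgeR's quasi-likelihood test). Calcrl, the calcitonin receptor-like receptor of vessels, measured 9.19, 8.71 and 9.94 CPM in Girk3-null and 20, 25.3 and 13.3 CPM in WT libraries, a log2 fold change of -1.08 (SE 0.22), and Lpar6, a receptor for lysophosphatidic acid, had one of -0.87 (SE 0.26), both at adjusted p = 0.291 in edgeR's quasi-likelihood test. Among the WT libraries Calcrl was lowest in replicate 3, as were the endothelial markers Pecam1, Cdh5 and Kdr, whereas Emcn, Robo4 and Vwf were not. In Girk3-null libraries Calcrl stayed at 8.71 to 9.94 CPM, while the endothelial markers summed to 37.5, 114 and 132 CPM. The part of endothelial cells in the Calcrl values was not tested.

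Of 8 tested adenylyl cyclases, the enzymes that make cAMP, 4 had a positive and 4 a negative estimate, with a median of -0.04. Adcy2 measured 59.8, 54.6 and 56.7 CPM in Girk3-null and 40.8, 43.2 and 52.2 CPM in WT libraries, higher in every Girk3-null library (log2 fold change 0.33, SE 0.12, adjusted p = 0.299 in edgeR's quasi-likelihood test). Adcy9 had a log2 fold change of 0.61, Adcy4 of -0.43 and the barely expressed Adcy1 of -1.53. Of 15 tested phosphodiesterases, which degrade cAMP and in part cGMP, 4 had a positive and 11 a negative estimate, with a median of -0.13. Pde11a was at 0.90, Pde7b at 0.66, Pde2a at -0.74 and Pde1c at -0.95. Of 11 subunits and targets of the cAMP branch, 3 had a positive and 8 a negative estimate, among them the cAMP-activated exchange factor Rapgef3 at 0.68 and the catalytic kinase subunit Prkaca at 0.32 on the higher side, and the regulatory subunit Prkar1a at -0.21 and the transcription factor Crem at -0.29 on the lower.

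Of 13 tested effectors of Gq and of beta-gamma dimers, 7 had a positive and 6 a negative estimate, with a median of 0.11. Prex1, an exchange factor of Rac that beta-gamma activates, measured 46.0, 33.7 and 34.6 CPM in Girk3-null and 26.0, 21.4 and 28.6 CPM in WT libraries, a log2 fold change of 0.59 (SE 0.16, adjusted p = 0.291 in edgeR's quasi-likelihood test) with no overlap. Plcb1, a phospholipase C that Gq activates, was at 0.31 without overlap, and Prex2 at -0.60. The 8 receptor kinases and arrestins, which silence active receptors, had 6 positive and 2 negative estimates and a median of 0.14.

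Of 15 tested chaperones and activators that act on G proteins without a receptor, 11 had a positive and 4 a negative estimate, with a median of 0.11. Gpsm1, a GoLoco protein that holds Gi alpha in its GDP form, measured 47.5, 38.0 and 37.4 CPM in Girk3-null and 32.9, 27.9 and 31.5 CPM in WT libraries. It was higher in every Girk3-null library, with a log2 fold change of 0.41 (SE 0.13, adjusted p = 0.291 in edgeR's quasi-likelihood test). Nucb1, a Golgi protein that binds Gi alpha, was at 0.47, Rasd1, a small GTPase that acts on Gi, at 0.96, and Ccdc88a, or Girdin, at -0.23. The 6 tested proteins with an RGS domain outside the numbered family, such as the axins, had 1 positive and 5 negative estimates and a median of -0.11.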

How the data were processed

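The deposited table gives raw gene counts and RPKM for each of the 6 libraries, per the file headers, in positions of mm10. Poly(A)-selected TruSeq libraries were run on an Illumina HiSeq, per the labels' protocols. bcl2fastq 2.19.0, STAR 2.5.2b and mm10 are named in the submitters' processing notes. What tool, annotation and strand setting were used for counting is not given in the sources used here, and overlapping genes are therefore treated as uncertain. The deposited RPKM were scaled by the authors to library total and gene length, per the labels' protocols, and served for levels, shares and ratios.

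Counts were tested on all genes with edgeR 4.0.16 in R 4.3.3 (quasi-likelihood F-test, genotype alone, TMM factors). The filterByExpr filter, with its minimum count at 10 and its minimum total at 15, kept 17554 genes. P-values were adjusted over these genes by the Benjamini-Hochberg method at a threshold of 0.05. CPM are TMM-scaled, and the SE is that of the log2 fold change. Shares and ratios were compared by exact permutation tests over libraries. The fit was tested on simulated data. The alternatives used DESeq2 1.42.0, limma 3.58.1, other scalings, filters and units, a term for the title number, and leaving out each library. Values with the title numbers split at 200 are differences of mean log2(CPM + 0.5), with no test.

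Genes given in every library were the 3 with the highest mean RPKM in each family, the 12 tested with the smallest p and those within 10 Mb of Kcnj9, 23 in all. From a pathway list up to 4 genes with the smallest p were named, most of them with a log2 fold change only. The members and lists were chosen with earlier results of these data known. Of the list symbols, 250 were matched and 1 was not. Of the 9 pathway lists, 1 counts in their totals but is not reported here on its own. Replicates were numbered in deposit order, and p-values measure the spread between these 6 libraries.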

Additional observations from a re-analysis of the deposited data

How the results depend on the processing

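No paired analysis was possible because replicate numbers are deposit order only and pair no libraries. Over all genes, edgeR called 1 gene, DESeq2 339, edgeR with no filter 53, edgeR scaled by library size only or with a title number term 0, limma-voom and limma on log2(RPKM + 0.1) or log2(RPKM + 1) 0, and leaving out 1 library 0 to 74. Of the 47 tested G protein and RGS genes, DESeq2 called 1 (Rgs4) and every other setting run 0. Their median of -0.009 was -0.117 with library size only, 0.007 with no filter, 0.009 with the title number term, -0.083 and -0.043 on log2(RPKM + 0.1) and log2(RPKM + 1), 0.012 in limma-voom and -0.049 to 0.024 with 1 library left out. At an unadjusted p under 0.05 there were 5 of 47 (14.5% of all genes), 8 with library size only (17.5%), 9 of 52 with no filter (12%), 9 on log2(RPKM + 1) (15.9%) and 3 to 10 with 1 library left out (5.40% to 23.2%). Library size alone moved the median of all genes to -0.094 from 0.014, so small positive estimates turned negative with that scaling and with RPKM, which is scaled the same way. Gnas was at -0.078, -0.075 and -0.074, and Gng5 at -0.050, -0.045 and -0.043, with library size only, log2(RPKM + 0.1) and log2(RPKM + 1). Rgs16 was at 0.013 with the title number term and at -0.121 to 0.154 with 1 library left out. In the libraries with title numbers above 200, a setting chosen after seeing the data, Gnai2 was at -0.036, Gng11 at 0.228, Gng7 at -0.016 and Rgs2 at 0.119. The cause of the changes under the title number settings was not tested. That setting has 1 WT library, and no test was run on it. Over the 23 genes given in every library, the lists and the shares, 818 other values kept direction and call or moved by less than the spread, and 82 moved further. Genes below 1 RPKM, among them Rgs7, Gng13 and Gnat3, are limited by depth.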
